A study of Homo sapiens with 25 samples.

Results

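The genes described here encode the machinery of RNA polymerases I and III: 33 genes for subunits found in 1 or both of these enzymes and for the factors that place them at promoters. They were chosen by name, for their function, but with earlier results of these data known. All 33 were among the 28395 genes of the count table, and all passed the filter on low counts, so that they make up 33 of the 14658 genes tested. RNA polymerase I works in the nucleolus, where it transcribes the precursor of the large ribosomal RNAs. RNA polymerase III makes 5S ribosomal RNA, transfer RNAs and other small structured RNAs. Both enzymes supply growing cells with the parts of the translation apparatus, and several of their genes are known targets of the transcription factor MYC, which recruits TRRAP.

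The cells were A549, an established human lung carcinoma line, grown with an auxin-inducible degron (mAID) on TRRAP, the large scaffold protein of the SAGA and TIP60 acetyltransferase complexes. Every group, the DMSO controls included, carried this tag and was held in 2 mM thymidine for 20 h, then cultured for 4 h after its removal, and there were 3 poly(A) RNA libraries in each of 4 groups. The groups were both drugs (5-Ph-IAA and prexasertib), 5-Ph-IAA (1 µM for 6 h, given to degrade TRRAP), prexasertib (for 3 h, an inhibitor of CHK1, a checkpoint kinase) and DMSO. The labels list the genotype as WT although the growth protocol names the degron line, and they do not say whether that line is a single clone or whether the libraries came from separate cultures, so p-values measure the spread between these libraries, which may be technical. The degron acts on the protein, so that RNA counts do not check the loss of TRRAP. TRRAP protein, cells without the degron and the 13 CUT&RUN samples are not analysed here.

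Library totals ran from 10830048 to 17789482 counts, and the 33 genes together held between 0.172% and 0.194% of a library. In each group the library numbered 3 had the most of the 33 genes above their group mean, between 22 and 25. The other libraries had from 5 (DMSO replicate 2) to 16 (prexasertib replicate 2), and the share over all genes was not counted. Of the epithelial markers, KRT8 averaged 3263 CPM (the count as a share of the library total, scaled by the trimmed mean of M-values, TMM), KRT7 3025 CPM and CDH1 98.9 CPM, while EPCAM was nearly absent at 0.798 CPM. The summed level of 14 markers of blood, stromal, endothelial and neural cells was 110 to 135 CPM with both drugs, 112 to 132 with 5-Ph-IAA, 133 to 140.4 with prexasertib and 123 to 135 with DMSO, and between 2 and 6 of the 14 were at 0 in a library. Of the 14, PTPRC, CD3E, PECAM1 and GFAP stayed at or below 0.219 CPM in the mean of every group. By contrast, CD68, COL1A1, COL3A1, PDGFRB, SNAP25, SYT1 and RBFOX3 passed the filter on low counts. PDGFRB, a stromal receptor gene, was higher with 5-Ph-IAA at 2.52 ± 0.133 CPM, against 0.924 ± 0.358 CPM with DMSO (1.45 ± 0.34 log2, edgeR adjusted p = 0.0084), and KRT8 and KRT7 were lower (-0.34 ± 0.10 and -0.30 ± 0.069 log2, adjusted p = 0.028 and 0.0068). The part of these markers in the results was not tested. Here and below CPM are means ± SD (n = 3) where not given per library, and log2 fold changes are ± SE.

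In 5-Ph-IAA against DMSO, which asks what the degrader did without prexasertib, 9 of the 33 genes (27.3%) were lower and 0 were higher. Over all genes tested 21.8% were called, 12.2% as lower and 9.65% as higher. The 9 were UBTF, POLR1G, POLR1C, TAF1D, POLR1B, POLR3E, POLR3K, POLR1A and POLR1E, with log2 fold changes from -0.99 to -0.38. The median log2 fold change was -0.16 over the 33 genes and 0.01 over all genes tested. Under prexasertib (both drugs against prexasertib, which shares no library with the first comparison) 9 genes (27.3%) were lower and 0 higher, against 18.2% of all genes called, 10.4% as lower and 7.85% as higher. Of the 33 genes, 8 were lower in both comparisons, POLR3K passed only without prexasertib and POLR3D only with it, and 23 passed in neither. The share of all genes lower in both was not counted, so the 8 are not read as a trait of these genes. POLR3K and POLR3D were not called in the interaction, the test of the difference. Each called gene had the same sign within all 3 replicate numbers, which adds no support, as the calls came from the same libraries. Without regard to any p, the 3 libraries of one group lay entirely below the 3 of the other for 12 genes and entirely above for 3 in 5-Ph-IAA against DMSO (18.9% and 18.5% of all genes, 37.3% in all), and for 13 and 3 under prexasertib (17.6% each, 35.2% in all). Scaling by library size alone, which raised the median of all genes to 0.16 and 0.15 log2 in these comparisons and that of the 33 genes to 0.00 and -0.02, gave 6 higher and 7 lower genes (27.3% of all genes called), and 6 and 6 (23.6%). With the replicate number as a block the counts were 4 higher and 15 lower (42.6% of all genes called, 19% as higher and 23.6% as lower), and 3 higher and 14 lower (37.1%, 17.2% as higher and 19.9% as lower). Without the 4 libraries numbered 3 they were 3 higher and 11 lower (36% of all genes called), and 1 higher and 13 lower (30.5%). As RNA was measured in bulk, fewer expressing cells and less RNA per cell cannot be told apart.

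**Figure D1:**
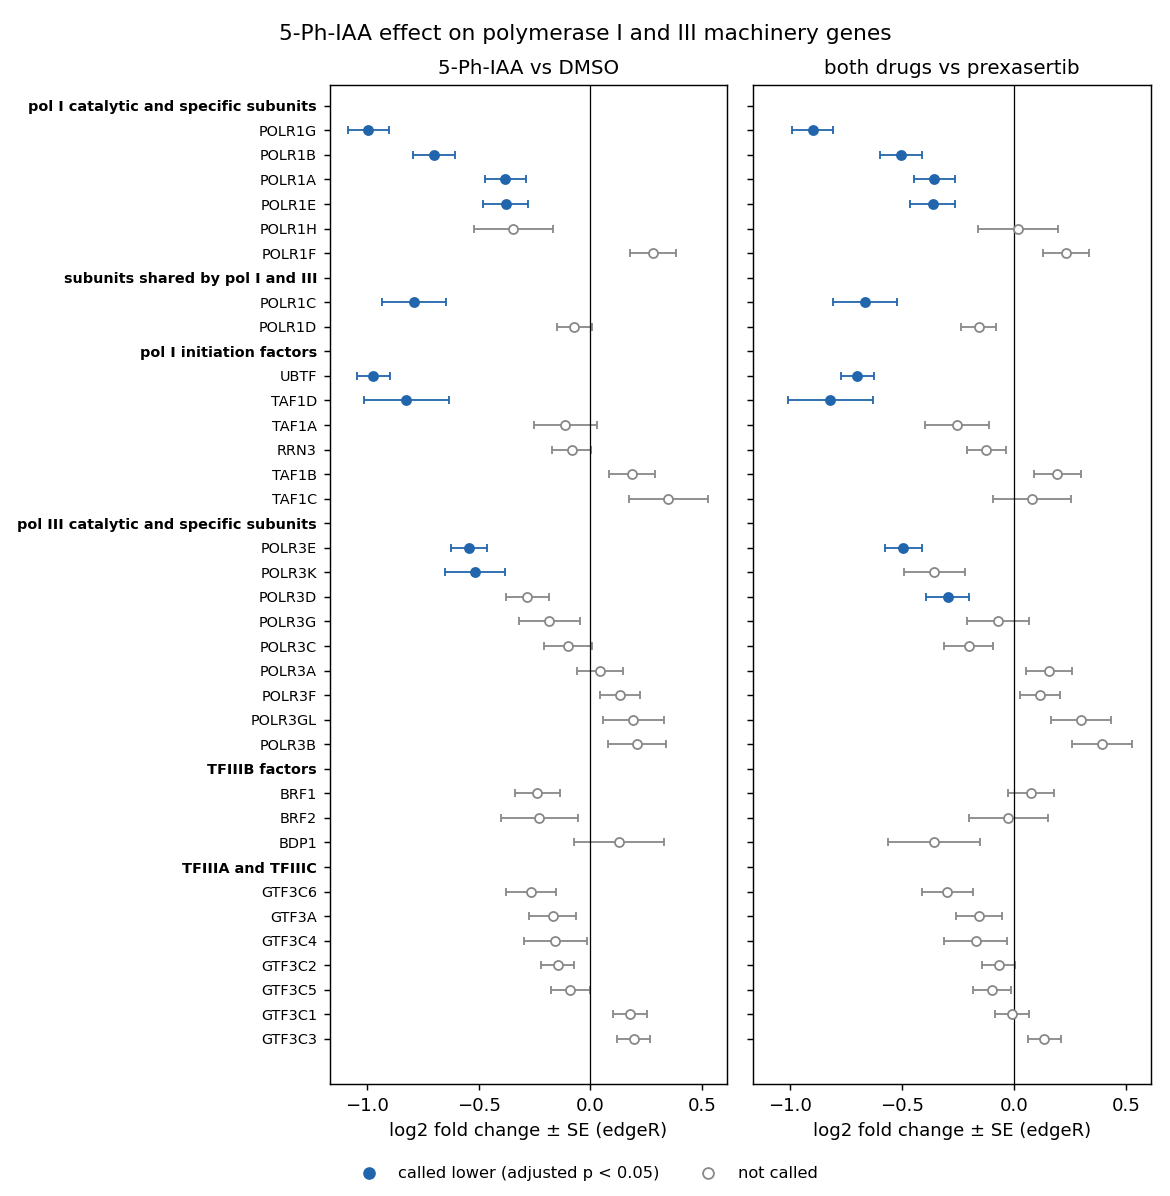
Log2 fold changes of the 33 genes, grouped by role, for 5-Ph-IAA against DMSO and for both drugs against prexasertib; points are the edgeR estimates, bars the SE, and filled points passed the adjusted p of 0.05. All filled points lie left of 0, and 4 of the 6 polymerase I subunits are filled in each comparison. Over all genes tested 21.8% and 18.2% were called, 12.2% and 10.4% as lower.

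The promoters of 29 of the 33 genes were in the RefSeq table (GRCh38.p14), as windows of 300 bases from 250 before to 50 after a start; POLR3G, BRF2, POLR1E and POLR3D were not. Windows were searched on both strands for the E-box CACGTG, the core motif bound by MYC with MAX, which reads the same on both strands. It was in at least 1 window of 7 of the 29 genes (24.1%), against 8.77% of the 27305 genes in the table. Those are all genes with a window and not only those tested here. This and the other motif shares thus compare unlike sets of genes. By window the shares were 17.1% of 41 and 7.26% of 35116, and a match is only a description of the letters. The E-box was in 2 of the 8 genes with a window that were lower with 5-Ph-IAA (POLR1G and POLR3E) and in 5 of the other 21 (POLR3A, POLR3C, GTF3C2, GTF3C4 and GTF3C6). The windows below are shown because their E-box lies within 35 bases of the start: those of POLR1G (chr19:45406394-45406693, plus strand) and POLR3E (chr16:22297159-22297458, plus strand), both lower with 5-Ph-IAA, and those of POLR3A (chr10:78029466-78029765, minus strand) and GTF3C4 (chr9:132669785-132670084, plus strand), neither of them called. Capitals mark the E-box and, in POLR3E, a B box, the inner promoter element of transfer RNA genes.
POLR1G: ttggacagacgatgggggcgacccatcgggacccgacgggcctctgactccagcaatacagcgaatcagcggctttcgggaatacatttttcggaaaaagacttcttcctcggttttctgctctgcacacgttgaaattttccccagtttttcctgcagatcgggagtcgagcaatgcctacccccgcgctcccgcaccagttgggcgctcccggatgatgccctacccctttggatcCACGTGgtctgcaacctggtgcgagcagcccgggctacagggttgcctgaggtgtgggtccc
POLR3E: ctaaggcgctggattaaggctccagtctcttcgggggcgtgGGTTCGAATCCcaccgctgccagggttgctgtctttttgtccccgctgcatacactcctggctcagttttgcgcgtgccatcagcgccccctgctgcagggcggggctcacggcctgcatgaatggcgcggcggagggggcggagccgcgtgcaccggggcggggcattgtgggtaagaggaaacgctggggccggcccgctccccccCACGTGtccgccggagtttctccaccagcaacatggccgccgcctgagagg
POLR3A: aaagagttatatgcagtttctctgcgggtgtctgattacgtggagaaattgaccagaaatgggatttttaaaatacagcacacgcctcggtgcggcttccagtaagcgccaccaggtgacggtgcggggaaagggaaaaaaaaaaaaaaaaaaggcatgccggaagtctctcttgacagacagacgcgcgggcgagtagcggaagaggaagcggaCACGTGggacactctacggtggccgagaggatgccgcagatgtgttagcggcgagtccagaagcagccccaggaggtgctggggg
GTF3C4: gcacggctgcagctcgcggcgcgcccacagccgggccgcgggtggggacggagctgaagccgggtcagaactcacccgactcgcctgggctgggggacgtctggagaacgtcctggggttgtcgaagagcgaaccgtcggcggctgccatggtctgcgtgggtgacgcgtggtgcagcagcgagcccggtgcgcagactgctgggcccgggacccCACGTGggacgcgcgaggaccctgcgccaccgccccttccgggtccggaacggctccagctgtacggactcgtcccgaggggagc
The first base of the E-box is 12 bases before the start in POLR1G, 1 before it in POLR3E and 35 before it in POLR3A and GTF3C4. The window of POLR3E, itself a polymerase III subunit gene, overlaps the annotated leucine transfer RNA gene TRL-AAG2-4 (chromosome 16, 22297140 to 22297221), and its B box begins 209 bases before the start of POLR3E. The consensus B box, searched after that window had been seen, was in 2 of the 29 genes (POLR3E and TAF1C) and in 0.0989% of all genes with a window. The CHR letters TTTGAA, an element bound by the MuvB complex, were in 3 of 29 genes (POLR1A, BRF1 and TAF1A; 10.3%, against 18.2% of all genes). The palindromic site of NRF1 was in 3 of 29 (POLR3B, GTF3A and GTF3C1; 10.3%, against 1.52%). The GTF3C4 window also overlaps the neighbouring gene DDX31.

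Among the 6 genes for subunits of polymerase I alone, 4 were lower with 5-Ph-IAA and 0 were higher, with a median log2 fold change of -0.38. Over all genes tested 12.2% were lower and 9.65% higher. As each role holds few genes, counts by role are not read as a trait of a role. POLR1G (NCBI Gene 10849, chromosome 19, 45406644 to 45410737) encodes a subunit of the heterodimer with POLR1E that helps the enzyme to start. It had 34.4, 31.0 and 29.2 CPM with 5-Ph-IAA, against 60.0, 59.3 and 69.0 CPM with DMSO. With both drugs it had 29.9, 32.3 and 28.5 CPM, against 58.3, 54.7 and 56.0 CPM with prexasertib. All 6 libraries with 5-Ph-IAA lay below all 6 without it, and the log2 fold changes were -0.99 ± 0.092 and -0.90 ± 0.093 (SE; edgeR adjusted p = 8.9e-06 and 2.7e-05), the largest falls of the 33 genes in both comparisons. POLR1G shares 3404 bases with ERCC1, and as the strand setting of the counting is not given, their reads may be mixed; ERCC1 itself had -0.04 ± 0.074 and -0.01 ± 0.074 (adjusted p = 0.72 and 0.93).

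POLR1B (NCBI Gene 84172, chromosome 2, 112542036 to 112579818), the second catalytic subunit, had 42.2, 40.1 and 41.0 CPM with 5-Ph-IAA, against 62.9, 59.7 and 77.3 CPM with DMSO. With both drugs the values were 39.6, 39.6 and 40.4 CPM, against 58.0, 56.7 and 54.9 CPM with prexasertib. The groups did not overlap, and the changes were -0.70 ± 0.092 and -0.50 ± 0.093 log2 (edgeR adjusted p = 0.00017 and 0.0022). POLR1A (NCBI Gene 25885, chromosome 2, 86020216 to 86105886), the largest catalytic subunit, had 89.5, 93.8 and 82.4 CPM with 5-Ph-IAA, against 103, 116 and 128 CPM with DMSO. Under prexasertib it had 84.1, 75.7 and 91.5 CPM with both drugs, against 109.8, 102 and 109.8 CPM with prexasertib. Its changes of -0.38 ± 0.093 and -0.35 ± 0.093 log2 (edgeR adjusted p = 0.01 and 0.018) were smaller than those of POLR1B, and neither was called with library size as the only scaling. POLR1E, the partner of POLR1G, averaged 51.2 ± 2.56 CPM with 5-Ph-IAA, against 66.7 ± 7.55 CPM with DMSO, and 49.3 ± 6.20 CPM with both drugs, against 63.4 ± 1.08 CPM with prexasertib. It fell by 0.38 ± 0.10 and by 0.36 ± 0.10 log2 (edgeR adjusted p = 0.016 and 0.025), and both calls were lost with library size alone. Without DMSO replicate 3 or 5-Ph-IAA replicate 1 its first call was lost (adjusted p up to 0.069). Under prexasertib, POLR1E lost its call without any 1 prexasertib library or without replicate 1 or 2 of both drugs (up to 0.11), and POLR1A without prexasertib replicate 1 or replicate 1 or 2 of both drugs (up to 0.083).

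The other two polymerase I subunits were not called. POLR1F, which encodes the stalk subunit that the initiation factor RRN3 contacts, averaged 37.7 ± 1.07 CPM with 5-Ph-IAA, against 31.1 ± 3.15 CPM with DMSO. Its 3 libraries with 5-Ph-IAA all lay above the 3 with DMSO, and the change of 0.28 ± 0.10 log2 had an edgeR adjusted p of 0.07 (0.0094 with the block). Under prexasertib the value was 0.23 ± 0.10 (0.14, and 0.034 with the block). POLR1H, a subunit for cleavage of the transcript, was weakly counted at 11.6 ± 1.49 CPM with 5-Ph-IAA and 14.7 ± 2.83 CPM with DMSO, and overlaps PPP1R11 and POLR1HASP. Its values were -0.34 ± 0.18 (edgeR adjusted p = 0.19, and 0.03 with the block) and 0.02 ± 0.18 (adjusted p = 0.96).

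Polymerases I and III share POLR1C and POLR1D, which pair in the assembly of both enzymes. POLR1C (NCBI Gene 9533, chromosome 6, 43517089 to 43562407) had 15.3, 19.0 and 22.4 CPM with 5-Ph-IAA, against 28.7, 30.1 and 39.0 CPM with DMSO. In the presence of prexasertib it had 22.7, 19.5 and 22.8 CPM with both drugs, against 33.9, 34.2 and 35.2 CPM with prexasertib. No library with 5-Ph-IAA reached the lowest library without it, and the changes were -0.79 ± 0.14 and -0.67 ± 0.14 log2 (edgeR adjusted p = 0.0016 and 0.0057). POLR1C shares 40074 bases with XPO5, which was lower as well (-0.35 ± 0.072 and -0.32 ± 0.072, adjusted p = 0.004 and 0.0072), and the part of shared reads was not tested. POLR1D, its partner, had 70.1 ± 4.74 CPM with 5-Ph-IAA and 73.6 ± 1.00 CPM with DMSO (-0.07 ± 0.079, adjusted p = 0.57).

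Of the 6 polymerase I initiation factors, 2 were lower in each comparison, where 12.2% and 10.4% of all genes were lower. UBTF (NCBI Gene 7343, chromosome 17, 44205040 to 44221304) encodes the HMG-box protein that binds ribosomal DNA along the promoter and the transcribed part. It had 92.3, 82.4 and 79.2 CPM with 5-Ph-IAA, against 167, 163 and 167 CPM with DMSO. With both drugs the levels were 80.8, 80.0 and 91.0 CPM, against 134, 139 and 136 CPM with prexasertib. The 6 libraries with 5-Ph-IAA covered nearly the same range with and without prexasertib, whereas prexasertib libraries lay below DMSO libraries. The changes were -0.97 ± 0.074 and -0.70 ± 0.074 log2 (edgeR adjusted p = 2e-06 and 3.3e-05), and their difference, the interaction, was 0.27 ± 0.10 (adjusted p = 1.00).

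TAF1D (NCBI Gene 79101, chromosome 11, 93730194 to 93741495), a subunit of the promoter selectivity factor SL1, had 14.0, 13.6 and 10.1 CPM with 5-Ph-IAA, against 22.1, 24.5 and 20.3 CPM with DMSO. With both drugs it had 14.1, 15.3 and 11.4 CPM, against 26.2, 28.7 and 16.9 CPM with prexasertib. In each group its library numbered 3 was the lowest, and the changes were -0.82 ± 0.19 and -0.82 ± 0.19 log2 (edgeR adjusted p = 0.0074 and 0.0091). TAF1D is the host of 8 annotated small nucleolar RNA genes, and with the strand and overlap settings unknown its count may hold part of their reads. The other SL1 subunits were not called in either comparison: TAF1A had -0.11 ± 0.14 and -0.25 ± 0.14 log2, TAF1B 0.19 ± 0.10 and 0.19 ± 0.10, and TAF1C 0.35 ± 0.18 and 0.08 ± 0.18 (edgeR adjusted p from 0.18 to 0.81). TAF1C was called higher in 5-Ph-IAA against DMSO with the replicate block (adjusted p = 0.00019). RRN3, which brings the polymerase to the promoter, had 87.3 ± 11.4 CPM with 5-Ph-IAA and 92.5 ± 4.04 CPM with DMSO (-0.08 ± 0.087 log2, adjusted p = 0.54). It lies inside PDXDC1, and its pseudogene copies RRN3P1, RRN3P2 and RRN3P3 averaged 2.95, 0.427 and 2.09 CPM over all libraries.

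**Figure D2:**
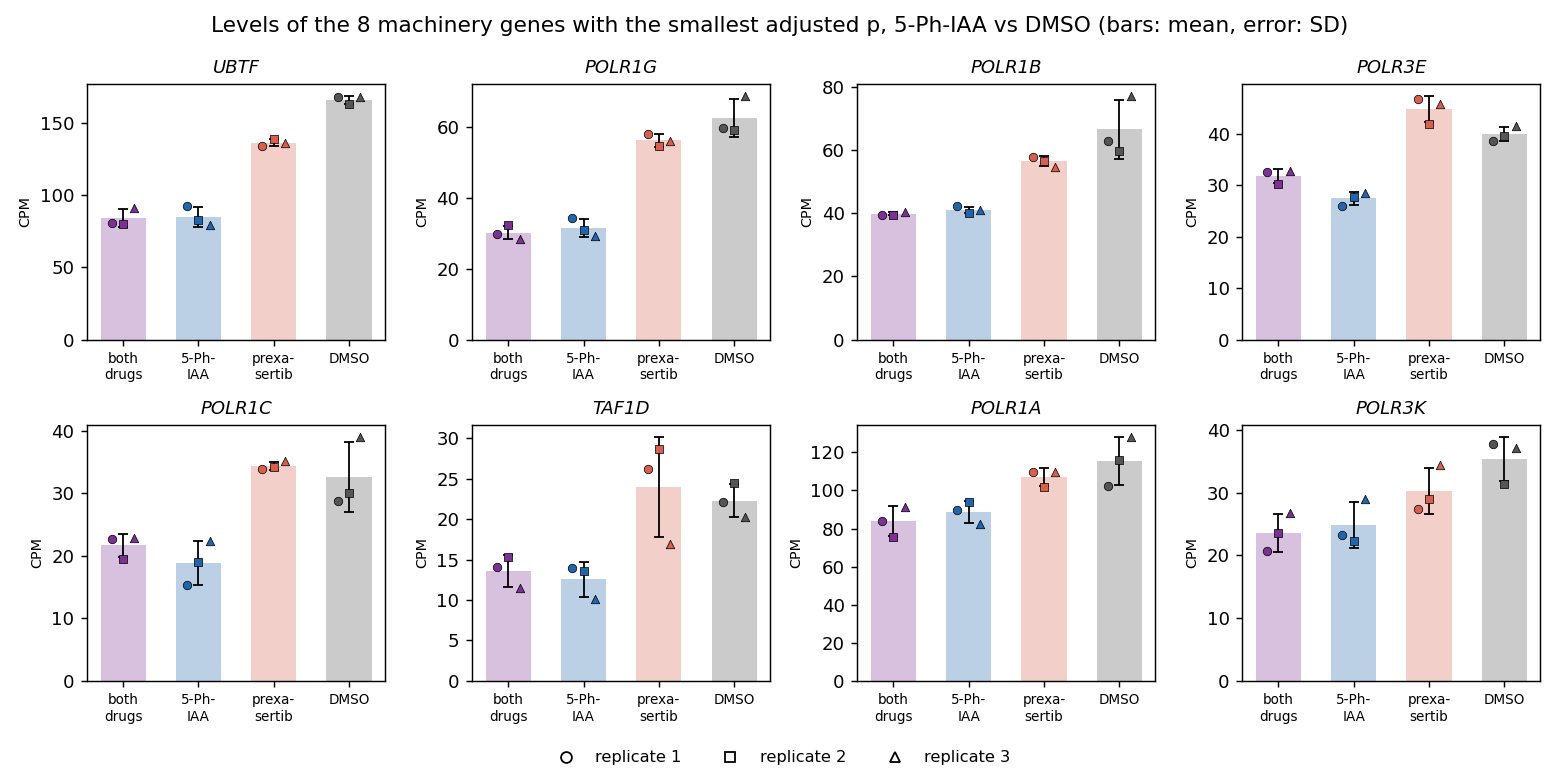
CPM in each of the 12 libraries for the 8 machinery genes with the smallest adjusted p in 5-Ph-IAA against DMSO; points are libraries, bars the group mean and error bars the SD (n = 3), and each panel has its own axis. In all 8 panels the 3 libraries with 5-Ph-IAA lie below the 3 with DMSO, for POLR1G a highest value of 34.4 CPM against a lowest of 59.3 CPM.

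Of the 9 genes for subunits of polymerase III alone, 2 were lower in 5-Ph-IAA against DMSO, where 12.2% of all genes were. The median log2 fold change of the 9 was -0.10. POLR3E (NCBI Gene 55718, chromosome 16, 22297409 to 22335096) encodes the partner of POLR3D in a heterodimer related to TFIIF of polymerase II. It had 26.1, 27.7 and 28.6 CPM with 5-Ph-IAA, against 38.7, 39.7 and 41.6 CPM with DMSO. With both drugs it had 32.5, 30.3 and 32.8 CPM, against 46.9, 42.0 and 45.8 CPM with prexasertib. The 6 libraries with 5-Ph-IAA stayed below the other 6, and the changes were -0.54 ± 0.082 and -0.49 ± 0.082 log2 (edgeR adjusted p = 0.00045 and 0.001). POLR3D averaged 46.5 ± 2.15 CPM with 5-Ph-IAA, against 56.5 ± 4.49 CPM with DMSO (-0.28 ± 0.096 log2, edgeR adjusted p = 0.051, blocked 0.0015), and was just past the threshold under prexasertib (-0.29 ± 0.096, adjusted p = 0.048). That call was lost without any 1 of 8 libraries: replicate 1 or 2 of both drugs, of 5-Ph-IAA or of DMSO, or prexasertib replicate 2 or 3, with adjusted p up to 0.17. Scaling by library size alone, no filter, a stricter filter and a fit of only the groups compared lost it as well.

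POLR3K (NCBI Gene 51728, chromosome 16, 46407 to 53608), the subunit for cleavage of the transcript, had 23.2, 22.3 and 29.0 CPM with 5-Ph-IAA, against 37.7, 31.3 and 37.1 CPM with DMSO. Under prexasertib the libraries had 20.7, 23.5 and 26.7 CPM with both drugs, against 27.4, 29.0 and 34.3 CPM with prexasertib. Neither pair of groups overlapped, and the changes were -0.52 ± 0.13 (edgeR adjusted p = 0.014) and -0.36 ± 0.14 log2 (0.089, and 0.003 with the replicate block). Their difference was 0.16 ± 0.19 and was not called. The first call was lost without 5-Ph-IAA replicate 1 or 2 or without DMSO replicate 1 (adjusted p up to 0.071). The other polymerase III subunits were not called in these comparisons: POLR3A and POLR3B, which form the active centre, had 0.04 ± 0.10 and 0.21 ± 0.13 log2 with 5-Ph-IAA against DMSO, and POLR3C and POLR3F, which with POLR3G or POLR3GL form the initiation trimer, had -0.10 ± 0.11 and 0.13 ± 0.090 (edgeR adjusted p from 0.28 to 0.81). Under prexasertib the 3 libraries with both drugs lay above the 3 with prexasertib for POLR3B (0.39 ± 0.14, adjusted p = 0.058, and 0.012 with the block), and POLR3C had -0.20 ± 0.11 (0.23, and 0.047 with the block).

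The promoter factors of polymerase III gave no call in either comparison by edgeR, where 21.8% and 18.2% of all genes were called. For the 3 TFIIIB genes the median log2 fold change was -0.23 in 5-Ph-IAA against DMSO, and for the 7 genes of TFIIIA and TFIIIC it was -0.15. GTF3A encodes TFIIIA, which binds 5S genes, and had 87.8 ± 12.1 CPM with 5-Ph-IAA and 98.6 ± 6.90 CPM with DMSO. TFIIIC, encoded by GTF3C1 to GTF3C6, recognizes the inner promoter of transfer RNA genes, and its values in 5-Ph-IAA against DMSO lay between -0.27 ± 0.11 for GTF3C6 and 0.19 ± 0.074 for GTF3C3 (edgeR adjusted p from 0.079 to 0.5). With the replicate block GTF3A, GTF3C2 and GTF3C6 were called lower and GTF3C1 and GTF3C3 higher (adjusted p from 0.0053 to 0.031), and under prexasertib GTF3A and GTF3C6 lower (0.044 and 0.0022). Of the TFIIIB genes, BRF1 was called lower by the block with 5-Ph-IAA against DMSO (adjusted p = 0.011) and BDP1 under prexasertib (0.011). At an unadjusted p under 0.05, edgeR had 15 of the 33 genes (45.5%) in the first comparison, against 34.6% of all genes, and 14 (42.4%) in the second, against 31.2%.

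**Figure D3:**
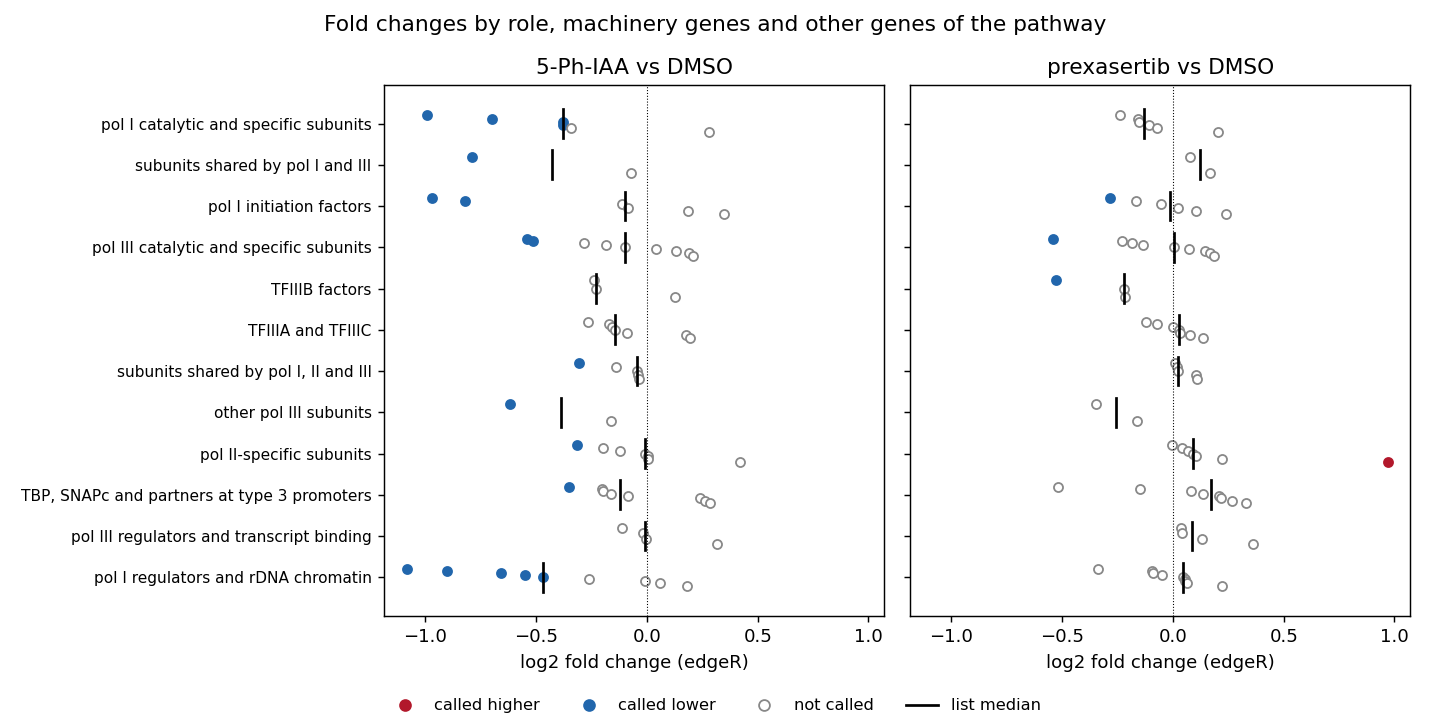
Log2 fold changes (edgeR) by role in 5-Ph-IAA against DMSO and in prexasertib against DMSO; each point is a gene, bars mark the median of each role, and the upper 6 rows hold the 33 genes and the lower 6 rows the 35 further genes of the pathways. In 5-Ph-IAA against DMSO the median is -0.38 for polymerase I subunits, -0.10 for polymerase III subunits and -0.47 for polymerase I regulators, and in prexasertib against DMSO POLR2A stands alone at 0.97.

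The effect of CHK1 inhibition alone is given by prexasertib against DMSO. Of the 33 genes 3 (9.09%) were lower and 0 higher, where 4.73% of all genes were called, 2.37% as lower and 2.36% as higher. BRF1 (NCBI Gene 2972, chromosome 14, 105209286 to 105315589), the TFIIB-related factor of TFIIIB at transfer RNA and 5S genes, had 38.0, 43.2 and 44.9 CPM with prexasertib, against 57.9, 59.8 and 64.0 CPM with DMSO. Where 5-Ph-IAA was present it had 48.5, 39.3 and 44.8 CPM with both drugs, against 53.9, 46.1 and 54.3 CPM with 5-Ph-IAA. The prexasertib libraries lay below the DMSO libraries (-0.53 ± 0.10 log2, edgeR adjusted p = 0.0094), whereas both drugs overlapped 5-Ph-IAA (-0.22 ± 0.10, adjusted p = 0.37). The difference of these effects was 0.31 ± 0.14 and was not called, and without prexasertib replicate 1 the call of BRF1 was lost (adjusted p = 0.055). BRF1 overlaps BTBD6 and PACS2, which had -0.14 ± 0.12 and 0.05 ± 0.10 log2 here (edgeR adjusted p = 0.64 and 0.88).

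POLR3B (NCBI Gene 55703, chromosome 12, 106357748 to 106510198), the second catalytic subunit of polymerase III, had 11.7, 10.4 and 12.8 CPM with prexasertib, against 15.6, 16.8 and 18.4 CPM with DMSO. With both drugs it had 14.6, 14.3 and 17.1 CPM, against 22.5, 18.1 and 18.1 CPM with 5-Ph-IAA. In both pairs the prexasertib-treated libraries were the lower ones, with -0.54 ± 0.13 (edgeR adjusted p = 0.036) and -0.35 ± 0.13 log2 (0.22, and 0.028 with the replicate block). UBTF averaged 136 ± 2.50 CPM with prexasertib, against 166 ± 2.72 CPM with DMSO (-0.28 ± 0.073, edgeR adjusted p = 0.041). For POLR1B the prexasertib libraries also lay below the DMSO libraries (-0.24 ± 0.092, adjusted p = 0.18, and 0.027 with the block). The remaining 29 genes ranged from -0.23 for POLR3K to 0.24 for TAF1C (0.57, and 0.017 with the block). Groups did not overlap for 5 genes that were lower and 3 that were higher, against 11.3% and 9.78% of all genes (21.1% in all). The block called 1 gene higher and 4 lower, where 18.1% of all genes were called, 8.37% as higher and 9.77% as lower. The count of 3 fell to 1 without replicate 1 or 2 of both drugs, 5-Ph-IAA replicate 2, prexasertib replicate 2 or any 1 DMSO library, and to 0 without prexasertib replicate 1. POLR3B and UBTF lost their calls in those fits (adjusted p up to 0.15 and 0.16), UBTF without prexasertib replicate 3 as well. The call of UBTF was also lost with DESeq2 size factors, with no filter and with only the groups compared, and that of POLR3B with limma-voom and with only the groups compared.

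Both drugs against 5-Ph-IAA asks what prexasertib did where 5-Ph-IAA was present. By edgeR 0 of the 33 genes were called, where 2.42% of all genes were (1.17% as higher and 1.26% as lower), and 5 (15.2%) had an unadjusted p under 0.05, against 13.8% of all genes. DESeq2 called 1. BDP1, the third TFIIIB subunit, is named here after its values were seen. It had 33.8, 37.5 and 36.4 CPM with both drugs, against 62.0, 67.1 and 45.5 CPM with 5-Ph-IAA. With prexasertib it had 51.3, 51.7 and 34.6 CPM, against 59.3, 62.6 and 38.3 CPM with DMSO. Its libraries numbered 3 were the lowest in each group except both drugs, where the range was narrow. For both drugs against 5-Ph-IAA the groups did not overlap, at -0.70 ± 0.20 log2 (edgeR adjusted p = 0.1). It was called by DESeq2 and by the replicate block (adjusted p = 1.1e-05), and by edgeR without 5-Ph-IAA replicate 3 or DMSO replicate 3. The block in all called 1 gene higher and 3 lower here (POLR3GL, and BDP1, POLR3B and POLR3C; adjusted p for POLR3GL = 0.038 and for POLR3C = 0.037), where 15.5% of all genes were called, 7.8% as higher and 7.7% as lower. Groups did not overlap for 2 genes that were lower and 3 that were higher, against 10.7% and 8.87% of all genes (19.6% in all).

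**Figure D4:**
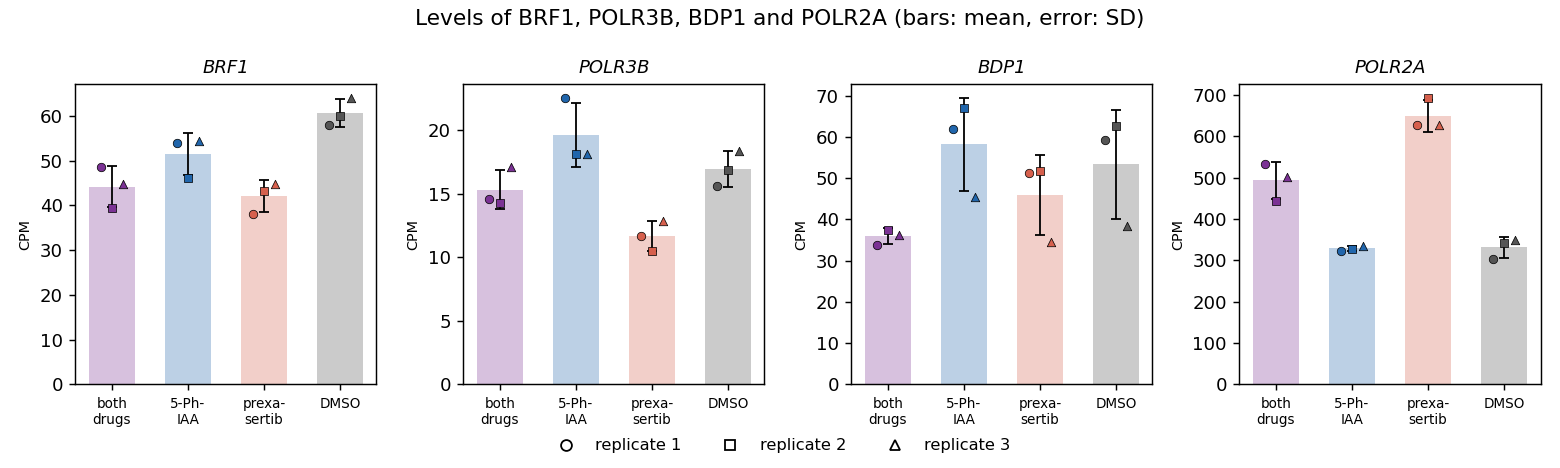
CPM in each of the 12 libraries for BRF1, POLR3B, BDP1 and POLR2A; points are libraries, bars the group mean and error bars the SD (n = 3). BRF1 and POLR3B lie lowest with prexasertib (means 42.0 and 11.6 CPM), BDP1 lowest with both drugs (35.9 CPM), and POLR2A highest with prexasertib (648 CPM).

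The interaction compares the effect of 5-Ph-IAA with and without prexasertib. Of the 33 genes, edgeR and DESeq2 each called 0, and edgeR called 0% of all genes. Of the 33, 2 (6.06%) had an unadjusted p below 0.05, against 3.54% of all genes. The estimates ran from -0.48 ± 0.29 for BDP1 to 0.36 ± 0.25 for POLR1H, with a median of 0.01. With the replicate block 0 of the 33 were called as well, against 0.655% of all genes. Without all 4 libraries numbered 3 BDP1 was called (-0.65 ± 0.12, edgeR adjusted p = 0.0039).

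Both drugs against DMSO gave 11 lower and 3 higher genes, where 25.9% of all genes were called, 14.2% as lower and 11.8% as higher. This comparison shares its DMSO libraries with those above. Groups did not overlap for 12 genes that were lower and 3 that were higher, against 20.8% and 19.7% of all genes (40.5% in all). The block called 4 higher and 16 lower, where 44.7% of all genes were called, 21.2% as higher and 23.5% as lower. Its added calls were TAF1C, higher, and BDP1, GTF3A, GTF3C2, GTF3C4 and GTF3C6, lower (adjusted p from 5.4e-05 to 0.041). Lower by edgeR without the block were POLR1G, UBTF, POLR1B, TAF1D, POLR1C, POLR3K, POLR1A, BRF1, POLR1E, POLR3C and POLR3E, from -1.05 ± 0.092 to -0.33 ± 0.082 log2, and TAF1D lost its call without replicate 3 of both drugs or DMSO replicate 2 (adjusted p up to 0.057). POLR3C averaged 34.2 ± 4.00 CPM with both drugs, against 43.1 ± 5.46 CPM with DMSO (-0.34 ± 0.11, edgeR adjusted p = 0.036), and lost its call without any 1 of 4 libraries (DMSO replicate 1 or 3, or replicate 1 or 2 of both drugs). Its call was lost as well with library size as the only scaling and with only the groups compared. POLR1F was higher at 38.7, 46.0 and 41.5 CPM with both drugs, against 34.6, 30.0 and 28.6 CPM with DMSO. These groups did not overlap (0.44 ± 0.10, edgeR adjusted p = 0.0076), against 0.28 ± 0.10 for 5-Ph-IAA and 0.20 ± 0.10 for prexasertib, each against the same DMSO libraries. GTF3C3, a TFIIIC subunit, had 89.9 ± 5.88 CPM with both drugs, against 74.4 ± 1.29 CPM with DMSO (0.27 ± 0.074, adjusted p = 0.015, lost without replicate 2 of both drugs). POLR3GL was higher by 0.48 ± 0.14 (adjusted p = 0.018, lost without DMSO replicate 2 or 3 or replicate 1 of both drugs).

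POLR3G and POLR3GL encode alternative forms of the same polymerase III subunit, of which POLR3G is known from stem cells and tumours. POLR3G had 12.3, 9.71 and 11.4 CPM with 5-Ph-IAA, against 13.4, 11.7 and 12.7 CPM with DMSO, and 12.0, 12.8 and 13.1 CPM with both drugs, against 14.5, 14.1 and 11.2 CPM with prexasertib. POLR3GL had 25.0, 27.2 and 26.5 CPM with 5-Ph-IAA, against 28.3, 22.8 and 18.0 CPM with DMSO, and 34.5, 32.1 and 30.0 CPM with both drugs, against 26.1, 27.9 and 24.5 CPM with prexasertib. Groups overlapped for POLR3G in both pairs, and those of POLR3GL were separate under prexasertib (0.30 ± 0.13 log2, edgeR adjusted p = 0.15, blocked 0.017). The count ratio of POLR3G to POLR3GL, a ratio of counts that were not corrected for length, was 0.426 ± 0.068 with 5-Ph-IAA, against 0.565 ± 0.124 with DMSO, and 0.394 ± 0.0443 with both drugs, against 0.506 ± 0.0507 with prexasertib (SD, n = 3). On the log2 scale the ratio moved by -0.40 without prexasertib and by -0.36 with it, a mean of -0.38 (exact two-sided permutation within arms, p = 0.01, smallest possible 0.005, adjusted over 4 ratio tests 0.04). With exchange only within replicate numbers the exact permutation p was 0.0625 (smallest possible 0.031, adjusted 0.19). As a lone effect of 4 tests could not pass 0.05 there after adjustment, nothing is read from that value. The call was lost without any 1 library other than DMSO replicate 1 or 5-Ph-IAA replicate 1 (adjusted p up to 0.12). Prexasertib moved it by -0.12 (exact permutation p = 0.33, adjusted 0.44).

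BRF1 and BRF2 are alternative TFIIB-related factors, BRF2 serving polymerase III genes with an upstream promoter such as the U6 gene. BRF2 was counted weakly, with 10.3, 13.0 and 14.4 CPM with prexasertib, against 17.0, 11.5 and 15.3 CPM with DMSO, and 11.6, 11.7 and 13.7 CPM with both drugs, against 10.5, 12.7 and 14.1 CPM with 5-Ph-IAA, and all 4 groups overlapped. BRF2 gave no call in any comparison and overlaps ADGRA2. The count ratio of BRF1 to BRF2 was 3.38 ± 0.289 with prexasertib, against 4.27 ± 0.891 with DMSO, and 3.61 ± 0.497 with both drugs, against 4.19 ± 0.803 with 5-Ph-IAA (SD, n = 3). The effect of prexasertib on it was -0.26 log2 (exact two-sided permutation p = 0.07, adjusted 0.14) and that of 5-Ph-IAA 0.03 (exact permutation p = 0.79, adjusted 0.79).

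**Figure D5:**
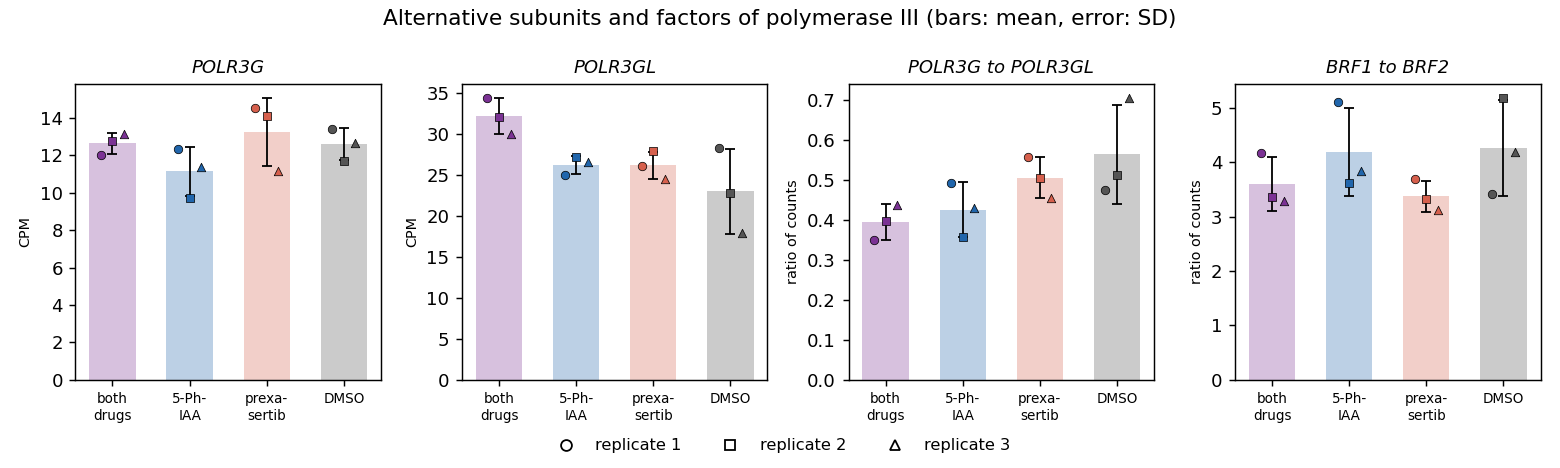
CPM of POLR3G and POLR3GL, and the count ratios of POLR3G to POLR3GL and of BRF1 to BRF2, in each of the 12 libraries; points are libraries, bars the group mean and error bars the SD (n = 3). The POLR3G to POLR3GL ratio averages 0.394 with both drugs, 0.426 with 5-Ph-IAA, 0.506 with prexasertib and 0.565 with DMSO, with overlap between single libraries.

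Around the 33 genes, 35 further genes of these pathways were listed, and 9 (25.7%) were lower and 0 higher in 5-Ph-IAA against DMSO, with a median of -0.11, where 21.8% of all genes were called and 12.2% as lower. The block called 5 higher and 12 lower, against 42.6% of all genes. Under prexasertib edgeR had 8 of the 35 (22.9%) lower and 0 higher, where 18.2% of all genes were called and 10.4% as lower. Of 9 regulators of polymerase I and of ribosomal DNA chromatin, 5 were lower and 0 higher, with a median of -0.47, and the same count held under prexasertib, with a median of -0.43. MYBBP1A, a nucleolar protein that binds MYB and regulates ribosomal RNA synthesis, had 59.9, 61.8 and 62.0 CPM with 5-Ph-IAA, against 124, 138 and 127 CPM with DMSO (-1.08 ± 0.091 log2, edgeR adjusted p = 4e-06). DDX21, a nucleolar RNA helicase, had 179, 175 and 186 CPM with 5-Ph-IAA, against 326, 306 and 376 CPM with DMSO (-0.90 ± 0.078, adjusted p = 5.2e-06). TCOF1, NOLC1 and NCL made up the 5, at -0.55 ± 0.064, -0.66 ± 0.082 and -0.47 ± 0.073. The termination factor gene TTF1, BAZ2A, SMARCA5 and FBL were not called by edgeR (-0.01 ± 0.10, 0.18 ± 0.068, 0.06 ± 0.092 and -0.26 ± 0.14), and the block called BAZ2A higher and FBL lower (adjusted p = 0.0094 and 2.8e-05).

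Of the 5 subunits common to polymerases I, II and III, 1 was lower in 5-Ph-IAA against DMSO, POLR2H (-0.31 ± 0.10 log2, edgeR adjusted p = 0.048), and the block called POLR2E lower too (adjusted p = 0.035). Among 7 subunits of polymerase II alone, POLR2D was lower (-0.32 ± 0.076, adjusted p = 0.0096), with a median of -0.01 for the list, and the block called POLR2I lower and POLR2J higher as well (adjusted p = 0.018 and 0.0004). Of 8 genes for TBP, the SNAPc complex and its partners, which serve promoters of the U6 type, ZNF143 was lower (-0.35 ± 0.12, adjusted p = 0.044), and the block called SNAPC1 and SNAPC2 higher (adjusted p = 0.012 and 0.043). TBP, shared by the promoter factors of all 3 polymerases, had 19.5, 17.1 and 18.0 CPM with 5-Ph-IAA, against 15.1, 16.2 and 14.2 CPM with DMSO (0.26 ± 0.11, adjusted p = 0.12), with no overlap. MAF1, the repressor of polymerase III, had 150.5 ± 9.37 CPM with 5-Ph-IAA and 151 ± 13.1 CPM with DMSO (0.00 ± 0.096, adjusted p = 0.99), and 0 of the 4 polymerase III regulators were called in edgeR (the block called LARP7 higher, adjusted p = 0.0021). MAF1 was called higher by the block in both drugs against prexasertib, 5-Ph-IAA and DMSO (adjusted p = 0.014, 0.0079 and 0.0023). For both drugs against prexasertib edgeR called 0 of the 5 common subunits and 0 of the 4 polymerase III regulators. It called 2 of the 7 polymerase II subunits lower there, and 1 of the 8 genes for TBP, SNAPc and partners.

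In prexasertib against DMSO 1 of the 35 further genes was called (2.86%, against 4.73% of all genes). The block called 5 higher and 3 lower (22.9%), where 18.1% of all genes were called, 8.37% as higher and 9.77% as lower. The 1 called without the block was POLR2A, which encodes the largest subunit of polymerase II and is named after its values were seen. It had 626, 692 and 626 CPM with prexasertib, against 303, 342 and 348 CPM with DMSO, and 532, 445 and 502 CPM with both drugs, against 323, 328 and 335 CPM with 5-Ph-IAA. All 6 libraries with prexasertib lay above the 6 without it, by 0.97 ± 0.083 and 0.58 ± 0.082 log2 (edgeR adjusted p = 5.3e-05 and 0.0016). Its counterparts in the other polymerases, POLR1A and POLR3A, had -0.11 ± 0.093 and -0.18 ± 0.10 with prexasertib (adjusted p = 0.65 and 0.41). The interaction of POLR2A was -0.39 ± 0.12 and was called only with the replicate block (adjusted p = 0.021).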

How the data were processed

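Poly(A) RNA of 12 libraries (3 in each of 4 groups) was analysed. The authors deposited 1 table of whole-number read counts per gene, not normalized, keyed by NCBI Gene ID. Per the submitters' processing notes, the tools were featureCounts 2.0.8 and limma 3.58.1 and the build was hg38, with no role given. The labels' protocols describe a directional library kit. Aligner, gene annotation and the counting's strand setting were not given in the sources used here. Symbols and positions came from a RefSeq table of GRCh38.p14, which matched 27745 of 28395 IDs. IDs without a match held 0.0324% of counts.

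In R 4.3.3, edgeR 4.0.16 kept 14658 genes by its expression filter (minimum count 10, minimum total 15), scaled libraries by TMM and fitted 1 mean per group over all 12 libraries. Robust quasi-likelihood F-tests gave p-values, adjusted by Benjamini-Hochberg over all genes tested, and a call needs an adjusted p under 0.05. Standard errors are the fold change divided by the root of F. TMM factors ran from 1.02 to 1.1 in libraries with 5-Ph-IAA, against 0.925 to 0.978 in the others, so changes are relative to the typical gene, and the biological coefficient of variation was 12.8%. CPM are TMM-scaled and were tested between libraries only and not between genes, as no transcript lengths were used. Ratios were tested by exact permutation within arms (400 arrangements). No pair of libraries of 1 group agreed within sampling noise.

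The 33 genes and all lists were chosen with earlier results of these data known. Values in every library are given for the 8 members with the smallest adjusted p in 5-Ph-IAA against DMSO, the 4 in prexasertib against DMSO, any called in the interaction, and the alternative pairs. From the further lists the 2 with the smallest adjusted p in each direction are named where called, plus TBP and MAF1. Some genes of these lists are not reported here. POLR2A, BDP1, TCOF1, NOLC1, NCL and the other uncalled members of short lists were named after their values were seen. Correlations of deviations were 0.22 to 0.633 over 18 pairs of libraries with the same replicate number, against -0.503 to 0.366 over 36 pairs with different numbers. The libraries numbered 3 had 0.531 to 0.633 among themselves and -0.503 to -0.326 with the others. Pairs within number 1 or within number 2 had 0.22 to 0.402, and pairs of number 1 with number 2 had 0.196 to 0.366. These last ranges overlap, so they do not show that numbers 1 and 2 pair the samples. The block assumes that the numbers do so, and its values are given where they change a call of a member or a count of calls. The alternatives were DESeq2 1.42.0 and its size factors, library size alone, other filters, limma-voom, the block, only the groups compared, and leaving out libraries. The code was checked on simulated counts. No dose of prexasertib is given, as the labels disagree on its unit.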

Additional observations from a re-analysis of the deposited data

How the results depend on the processing

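The counts of called genes were 9 for 5-Ph-IAA against DMSO, 9 for both drugs against prexasertib, 3 for prexasertib against DMSO and 0 for both drugs against 5-Ph-IAA. With the replicate block, which pairs libraries by number, they were 19, 17, 5 and 4 in that order, with 42.6%, 37.1%, 18.1% and 15.5% of all genes called. The interaction stayed at 0 with the block, and both drugs against DMSO went to 20 with it, against 14 without. Without all 4 libraries numbered 3, the counts were 14 in 5-Ph-IAA against DMSO, 14 in both drugs against prexasertib, 6 in both drugs against 5-Ph-IAA and 1 for the interaction (BDP1), while 36%, 30.5%, 13.9% and 1.27% of all genes were called in these fits. DESeq2 called 1 gene in both drugs against 5-Ph-IAA (4.48% of all genes called), and only the groups compared left 1 in prexasertib against DMSO (2.59%). Leaving out 1 library at a time gave 7 to 12 genes in 5-Ph-IAA against DMSO (14.1% to 22.9% of all genes called). For both drugs against prexasertib it gave 6 to 11 (12.1% to 19.1%), and for prexasertib against DMSO 0 to 3 (2.06% to 5.28%). Both drugs against 5-Ph-IAA had 0 to 1 (1.05% to 3%), both drugs against DMSO 12 to 15 (18.4% to 27.2%) and the interaction 0. The effect of 5-Ph-IAA on the log2 ratio of POLR3G to POLR3GL was -0.38 with the block too (exact permutation p = 0.0625, adjusted 0.19, in a design that could not pass 0.05 after adjustment for a lone effect). It ran from -0.44 to -0.29 with 1 library left out, and its adjusted exact permutation p (up to 0.12) was above 0.05 in 10 of those 12 fits. The cause of these changes was not tested. No gene's direction turned among called values in any alternative. Depth limits TAF1A, POLR3G, BRF2 and POLR1H most, at means of 11.7 to 13.3 CPM over all libraries.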

Other observations

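Apart from BCYRN1, the listed RNAs that polymerases I and III make were weakly counted or absent in these poly(A)-selected libraries. The annotated copies RNA45SN5 of the 45S precursor and RNA5S9 of 5S ribosomal RNA had 0 counts in all 12 libraries. The signal recognition particle RNAs RN7SL1 and RN7SL2 averaged 16.8 and 13.6 CPM over all libraries. RN7SK, which binds the elongation factor P-TEFb, averaged 0.777 CPM, and RPPH1 and RMRP, the RNA parts of RNase P and RNase MRP, 1.00 and 0.784 CPM. BCYRN1, a brain cytoplasmic RNA with an adenosine-rich stretch, averaged 125 CPM. Of 24 such genes listed, 20 were in the count table and 6 passed the filter on low counts, and none of the 6 was called by edgeR's quasi-likelihood test in any comparison; at an unadjusted p under 0.05 there was RN7SK alone, in prexasertib against DMSO and in both drugs against DMSO. RN7SK had 1.64 ± 0.66 log2 (SE) in the first (edgeR adjusted p = 0.21) and 1.49 ± 0.67 in the second (0.12, and 0.043 with the replicate block). BCYRN1 had 0.39 ± 0.37 log2 in 5-Ph-IAA against DMSO (edgeR adjusted p = 0.50, and 0.00036 with the block).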
